A study of Homo sapiens with 8 samples.

Results

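The genes described here encode U1, U2, U4 and U6, the small nuclear RNAs (snRNAs) that the major spliceosome builds on. They were chosen by name, as the entries of the deposited count tables that start with RNU1-, RNVU1-, RNU2-, RNU4- or RNU6-, and there were 31 of 2709 entries. Of these, 24 were U1 entries (4 named RNU1- and 20 named RNVU1-, the variant U1 genes), 2 were U4 entries and 5 were U6 entries. No entry starting with RNU2- was in the tables used here, so U2 was not analysed here. Small RNA was sequenced from exosomes of MEC-1 (n = 5 libraries) and from the parental MEC-1 cells (n = 3 libraries), an established line derived from chronic lymphocytic leukaemia, a B-cell malignancy. Exosomes are small vesicles that cells release. Both groups are untreated MEC-1 material from bioreactor culture, in which the upper compartment held serum that was not depleted of bovine exosomes, per the labels' protocols. Each group therefore represents a single cell line. The series' design text says that cell samples were paired with 3 of the exosome samples, but not with which. The labels do not name separate cultures for the replicates, and a p-value here covers the spread among these libraries, which may be technical.

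Each snRNA works as a particle with proteins. U1 pairs with the 5′ splice site of a pre-mRNA through its 5′ end, U2 pairs with the branch point, and U4 arrives base-paired to U6, which it holds inactive until the spliceosome is activated. U1, U2 and U4 are made by RNA polymerase II and carry a ring of Sm proteins, whereas U6 is made by RNA polymerase III, ends in a run of U and binds LSm proteins. All act in the nucleus. The variant U1 genes lie mostly on chromosome 1 and differ from the standard U1 gene by a few bases to many.

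Several U1 entries could not be told apart. RNU1-1, RNU1-2, RNU1-3, RNU1-4 and RNVU1-18 have the same 164-base sequence and had almost the same counts in every library, so they are represented here by RNU1-1. RNVU1-7 and RNVU1-9 had near-equal counts, as did RNVU1-1 and RNVU1-10, RNVU1-3 and RNVU1-12, and RNVU1-4 and RNVU1-5, and each pair is given under its first name. Counted once, the 31 entries made 23, of which 16 were U1. RefSeq also lists RNVU1-13 under RNVU1-19, RNVU1-16 under RNVU1-15 and RNVU1-11 under RNVU1-2, but their counts differed, so each was kept. How reads that map to several places were assigned is not given in the sources used here, so each value of a U1 copy is uncertain with respect to its nearest relatives.

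The sequences below are shown because the results turn on which U1 variant was counted. They come from GENCODE release 29 (GRCh38), matched by symbol and equal length, in DNA letters from 5′ to 3′. The counts were made on GRCh37, and the numbering of the RNVU1 genes may differ between the annotations. That was not checked against a GRCh37 genome, so a variant's sequence, and the differences drawn from it, hold only if its symbol names the same gene in both. In RNU1-1 the capitals mark the bases that pair with a 5′ splice site (positions 3 to 11, counted from the RNA's 5′ end) and the site of the Sm ring. In the variants the capitals mark the bases that differ from RNU1-1 or are inserted.
RNU1-1: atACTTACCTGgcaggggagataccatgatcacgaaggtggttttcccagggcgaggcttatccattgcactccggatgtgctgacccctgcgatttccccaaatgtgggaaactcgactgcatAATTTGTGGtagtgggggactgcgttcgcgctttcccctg
RNVU1-7: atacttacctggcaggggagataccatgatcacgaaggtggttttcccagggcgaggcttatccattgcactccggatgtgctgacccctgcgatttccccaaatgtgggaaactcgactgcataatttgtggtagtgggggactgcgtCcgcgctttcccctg
RNVU1-1: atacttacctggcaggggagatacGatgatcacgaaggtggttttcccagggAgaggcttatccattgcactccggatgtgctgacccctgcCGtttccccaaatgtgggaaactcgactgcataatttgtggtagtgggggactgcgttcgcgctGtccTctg
RNVU1-17: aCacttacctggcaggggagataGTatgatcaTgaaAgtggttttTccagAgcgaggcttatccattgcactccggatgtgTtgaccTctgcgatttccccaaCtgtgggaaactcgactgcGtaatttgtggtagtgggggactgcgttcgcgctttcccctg
RNVU1-14: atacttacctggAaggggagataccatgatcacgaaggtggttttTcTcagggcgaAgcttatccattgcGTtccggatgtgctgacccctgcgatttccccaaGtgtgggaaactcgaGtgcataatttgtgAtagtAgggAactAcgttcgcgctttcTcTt
RNVU1-15: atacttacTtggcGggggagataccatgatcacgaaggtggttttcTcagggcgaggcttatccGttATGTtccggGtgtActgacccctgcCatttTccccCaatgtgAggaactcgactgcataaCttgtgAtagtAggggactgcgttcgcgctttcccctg

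RNVU1-7 differed from RNU1-1 by 1 base, T150C. RNVU1-1 differed by 6, C25G, C53A, G93C, A94G, T157G and C161T. RNVU1-17 differed by 11, beginning with T2C beside the splice-site letters, which it kept, as it kept the Sm letters. RNVU1-14 was 15 edits away, counted as substitutions, insertions and deletions, and RNVU1-15 was 18 edits away. Among the 20-base stretches of each transcript, 130 of the 145 in RNVU1-7 also occur in RNU1-1, against 76 of RNVU1-1, 35 of RNVU1-17 and 26 of RNVU1-14. In RNVU1-17, 91 of its 20-base stretches are in no other GENCODE transcript named as U1, against 15 in RNVU1-7. Most 20-base stretches of RNVU1-7 thus also match RNU1-1, and most of those of RNVU1-17 do not.

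The splice-site letters ACTTACCTG, searched on the given strand only, began at position 3 in 12 of the 15 U1 entries that have a sequence in GENCODE, identical copies included. They were absent there from RNVU1-3, RNVU1-4 and RNVU1-15, the last of which has C9T. The Sm letters AATTTGTGG began at position 125 or, in RNVU1-19, at 128 in 12 of the 15, and were absent from RNVU1-2, RNVU1-14 and RNVU1-15, where RNVU1-14 and RNVU1-15 have G133A. Among the 297 GENCODE transcripts within 4 bases of RNU1-1's length, 10.8% held the first run and 18.9% the second. GENCODE 29 names 132 transcripts as U1, and those of this length may be among the 297. The shares are therefore not a background free of U1. These are matches of letters only.

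Libraries held 23353820 to 32436286 counts in exosomes and 25675636 to 57323598 in cells. Exosome 5 and cell 2 stood apart, with the smallest TMM scaling factors of their groups, 0.524 and 0.552, against 1.09 to 1.46 in the other exosomes and 0.905 to 1.42 in the other cells. Calls that were lost without them are also given without them. Values are CPM, the reads of an entry per 1000000 reads of TMM-scaled library size, so each is relative to the other RNAs of its library, and fold changes are exosome over cell. Levels between genes are set side by side only per kilobase of transcript.

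U1 and U4 were present in both exosome and cell libraries, and most of their abundant entries did not pass the test. Of the 31 entries, 18 had enough reads for testing, 1 was called higher in exosomes, 6 lower and 11 were not called (edgeR's quasi-likelihood test, Benjamini-Hochberg adjusted p under 0.05 over all features). Across all 1178 tested features, 43.0% were called, 20.7% higher and 22.3% lower. With near-identical entries of the same fit counted once, 12 were tested, giving 1 higher, 5 lower and 6 uncalled. The 5 lower hold both RNVU1-15 and RNVU1-16, which RefSeq lists under 1 gene and which are not taken as separate results. A refit in which features near-identical by counts alone were entered once tested 13 of the entries, giving 1 higher and 4 lower (median log2 fold change -1.07). RNVU1-1 was not called in that refit (edgeR adjusted p = 0.0586). In the main fit the median log2 fold change of the 12 was -0.83, beside -0.09 over all tested features. Over all 18 tested entries it was -0.32, and its sign turned to 0.19 with at least 50 counts required in 3 libraries, to 0.00187 with total counts in place of TMM, and to 0.01 without exosome 3, 0.10 without exosome 4 and 0.20 without cell 3. The 4 lowest passed the filter on low counts through the cell libraries, so the count and the median are descriptions of the entries that passed. The groups did not overlap for 4 of the 12, 1 with every exosome above every cell and 3 with every exosome below. Those 3 are RNVU1-6, RNVU1-15 and RNVU1-16. Over all tested features the groups did not overlap for 41.7%, with exosomes above in 21.6% and below in 20.1%.

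**Figure D1:**
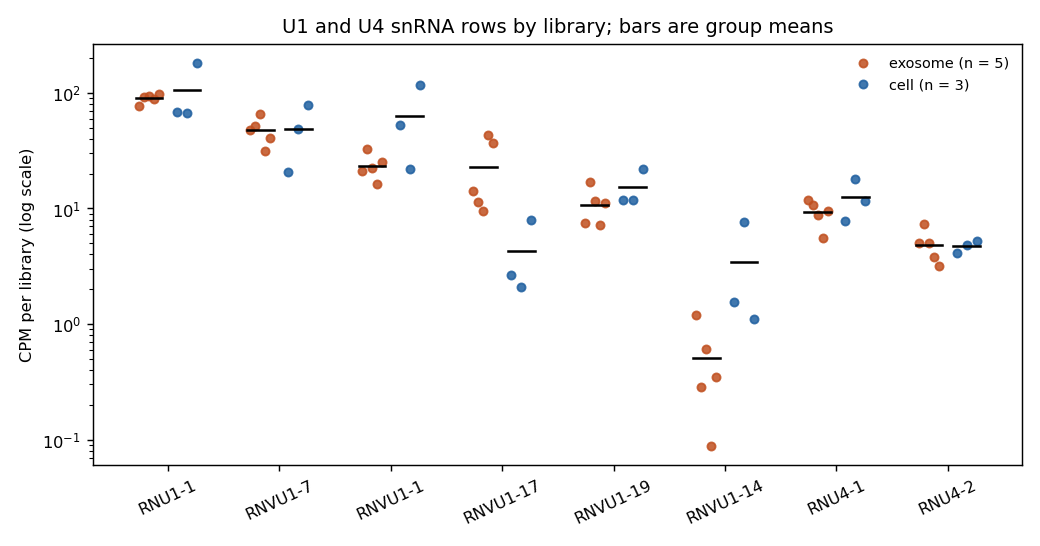
CPM on a log scale (vertical axis) of the U1 and U4 entries averaging 100 counts or more in either group, for each of 5 exosome and 3 cell libraries, with bars at group means. The groups separate only for RNVU1-17, where exosomes run from 9.42 to 43.0 CPM and cells from 2.10 to 8.02 CPM.

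RNU1-1, the standard U1 snRNA (GRCh37, chromosome 1, 16840617 to 16840780, minus strand), was the most abundant U1 entry in both groups, at 551 CPM per kilobase in exosomes and 641 in cells. Its level was 77.4, 92.6, 94.3, 88.4 and 98.8 CPM in exosomes 1 to 5, against 68.2, 66.8 and 181 CPM in cells 1 to 3. The exosomes lay close together, and the cells spread around them, with cell 3 highest. The mean was 90.3 ± 8.14 CPM in exosomes (SD, n = 5) and 105 ± 65.2 CPM in cells (SD, n = 3). The log2 fold change of -0.22 (SE 0.51) did not pass the test (edgeR adjusted p = 0.758), and leaving out cell 3 turned it to 0.76, exosome 3 to 0.08 and exosome 4 to 0.11.

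RNVU1-7, a variant U1 gene that differs from RNU1-1 by a single base (chromosome 1, 145969270 to 145969433, minus strand), had 47.7, 52.2, 66.0, 31.5 and 40.8 CPM in exosomes 1 to 5, against 20.6, 48.4 and 78.3 CPM in cells 1 to 3. Its lowest and its highest values were both in cells, so the exosome values lay inside the range of the cells. The log2 fold change was -0.04 (SE 0.54, edgeR adjusted p = 0.958), and its sign changed with the scaling. RNVU1-19, another variant (chromosome 1, 149514090 to 149514256, minus strand), averaged 10.8 ± 3.90 CPM in exosomes (SD, n = 5) and 15.2 ± 5.72 CPM in cells (SD, n = 3). The groups overlapped, with a log2 fold change of -0.49 (SE 0.51, edgeR adjusted p = 0.465).

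RNVU1-17 was the only snRNA entry of these types called higher in exosomes. This variant U1 gene (chromosome 1, 149194106 to 149194269, minus strand) had 14.1, 11.4, 9.42, 43.0 and 36.9 CPM in exosomes 1 to 5, against 2.66, 2.10 and 8.02 CPM in cells 1 to 3. Every exosome was above every cell, and exosomes 4 and 5 were well above the other 3 exosomes. Its mean was 23.0 ± 15.7 CPM in exosomes (SD, n = 5) and 4.26 ± 3.27 CPM in cells (SD, n = 3). RNVU1-17 was 5.37-fold higher in exosomes by the fit (log2 2.43, SE 0.72, edgeR adjusted p = 0.0130). Per kilobase it stood at 140 CPM in exosomes and 26.0 in cells, close to RNVU1-1 in exosomes (143) and far below it in cells (389).

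The call for RNVU1-17 depended on single libraries. Without cell 1 the log2 fold change was 2.04 (edgeR adjusted p = 0.0725), without cell 2 it was 2.01 (0.0521), without cell 3 it was 3.61 (0.00825), and without exosome 5 and cell 2 together it was 1.845 (0.0589). With exosomes 1 to 3 against the 3 cells it was 1.53 (0.0721). Exosomes 4 and 5 were also the highest for RNU11, the minor spliceosome's counterpart of U1, at 640 and 723 CPM beside 296, 170 and 213 CPM in exosomes 1 to 3 and 37.7, 40.1 and 76.4 CPM in the cells. The part of whatever sets those libraries apart in the RNVU1-17 result was not tested.

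RNVU1-1 was lower in exosomes, at the edge of the threshold. This variant (chromosome 1, 143647014 to 143647177, minus strand) had 21.0, 32.5, 22.4, 16.3 and 25.2 CPM in exosomes 1 to 5, against 52.8, 22 and 116 CPM in cells 1 to 3. Cells 1 and 3 were above every exosome, and cell 2 lay among them. The mean was 23.5 ± 6.01 CPM in exosomes (SD, n = 5) and 63.7 ± 48.1 CPM in cells (SD, n = 3), a log2 fold change of -1.44 (SE 0.56), 2.72-fold lower (edgeR adjusted p = 0.0471). The call was lost on leaving out any 1 library except cell 2. The log2 fold change was then -1.34 without exosome 1, -1.57 without exosome 2, -1.13 without exosome 3, -1.02 without exosome 4, -1.44 without exosome 5, -1.67 without cell 1 and -0.38 without cell 3, while without cell 2 it was -1.92 (edgeR adjusted p = 0.00935). In the 12 other settings the adjusted p ran from 0.0127 to 0.357 and passed in 2.

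**Figure D2:**
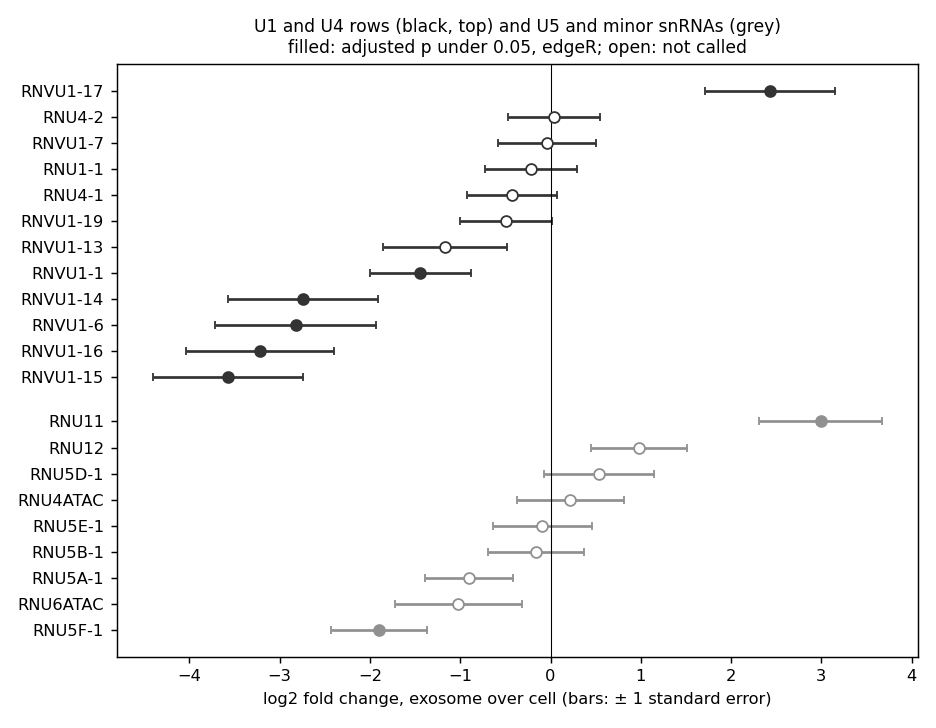
Log2 fold change, exosome over cell (horizontal axis), with bars of 1 standard error, for the tested U1 and U4 entries counted once and for the U5 and minor snRNAs. Filled points passed the test. RNVU1-17 at 2.43 is the only filled black point above 0, and RNU11 at 2.99 the only filled grey point above 0. RNU5F-1, at -1.90, is a filled grey point below 0.

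RNVU1-14, RNVU1-15, RNVU1-16 and RNVU1-6 were low in both groups, with means of 0.128 to 0.507 CPM in exosomes and 1.16 to 3.44 CPM in cells. RNVU1-14 (chromosome 1, 148241465 to 148241628, plus strand) had 1.20, 0.285, 0.613, 0.088 and 0.350 CPM in exosomes 1 to 5, against 1.56, 7.65 and 1.1 CPM in cells 1 to 3. Cell 2 was far above the rest, and exosome 1 overlapped the cells. The fit gave a log2 fold change of -2.74 (SE 0.83, 6.68-fold lower, edgeR adjusted p = 0.0138), which was lost without cell 2 (-1.49, adjusted p = 0.211) and without exosome 4 (-2.07, 0.0618). With total counts in place of TMM it was -2.07 (0.0581), and without exosome 5 and cell 2 together -1.35 (0.216).

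RNVU1-15 and RNVU1-16, which RefSeq lists under 1 gene, were lower in exosomes with no overlap between groups. Their reads were equal in exosomes 1, 2, 4 and 5 and differed in exosome 3 and in all 3 cells. Whether the same reads were counted on both is not given, so the calls are not taken as 2 separate results. RNVU1-15 (chromosome 1, 148604908 to 148605072, minus strand) had 10, 2, 8, 4 and 1 reads in exosomes 1 to 5, against 63, 95 and 28 in cells 1 to 3. Its log2 fold change was -3.57 (SE 0.83, 11.8-fold lower, edgeR adjusted p = 0.0028). RNVU1-16 (chromosome 1, 148766938 to 148767102, minus strand) had 10, 2, 4, 4 and 1 reads in exosomes, against 56, 41 and 42 in cells, with a log2 fold change of -3.22 (SE 0.82, 9.29-fold lower, adjusted p = 0.00495). Both calls held without any 1 library.

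RNVU1-6 (chromosome 1, 145382757 to 145382920, plus strand), 15 edits from RNU1-1, had 9, 3, 4, 11 and 0 reads in exosomes 1 to 5, against 60, 19 and 62 reads in cells 1 to 3. Every exosome was below every cell, also in CPM. Its log2 fold change of -2.82 (SE 0.89, 7.08-fold lower, edgeR adjusted p = 0.0177) was lost without exosome 3 (-2.34, adjusted p = 0.0617), without cell 1 (-2.60, 0.0767) and without cell 3 (-2.53, 0.0994). RNVU1-6, RNVU1-15 and RNVU1-16 each had only 1 exosome library over the filter's level of 0.335 CPM (unscaled) and all 3 cells over it, and RNVU1-14 had 2 exosomes and 3 cells, so all 4 entered the test through the group where they were high. RNVU1-13 (chromosome 1, 147994146 to 147994313, plus strand) averaged 1.14 ± 0.661 CPM in exosomes (SD, n = 5) and 2.57 ± 1.37 CPM in cells (SD, n = 3) and was not called (log2 -1.17, SE 0.69, edgeR adjusted p = 0.182).

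**Figure D3:**
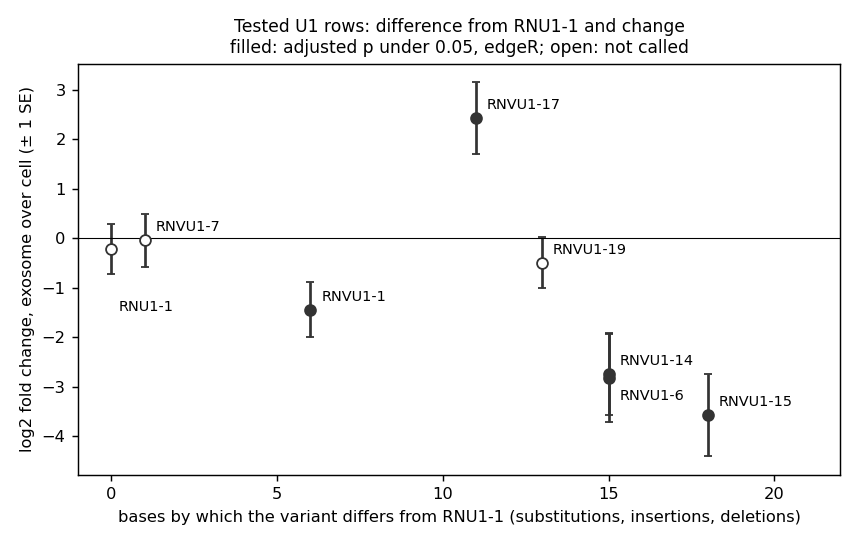
Number of bases by which each tested U1 entry with a GENCODE sequence differs from RNU1-1 (horizontal axis) against its log2 fold change, exosome over cell, with bars of 1 standard error. RNVU1-17, at 11 differences and 2.43, lies above 0, and RNVU1-19, at 13 differences, at -0.49. RNVU1-14, RNVU1-6 and RNVU1-15, at 15 to 18 differences, lie between -2.74 and -3.57. Those entries passed the filter on low counts through the cells, where they were high. Entries further from RNU1-1, such as RNVU1-3 at 26 and RNVU1-4 at 33 differences, were not tested and are not shown. No trend is read from the figure.

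The remaining U1 entries were below the filter and were not tested. RNVU1-2 had no read in any library, and RNVU1-8 had 1 read, in exosome 3. RNVU1-3, RNVU1-4, RNVU1-5, RNVU1-11 and RNVU1-12 summed to 5 to 14 reads over the 5 exosomes and 14 to 47 reads over the 3 cells. RNVU1-20 had 5, 2, 0, 1 and 1 reads in exosomes 1 to 5, against 18, 39 and 16 in cells 1 to 3. Per scaled library size RNVU1-20 was 11.1-fold lower in exosomes, with an exact binomial interval at 95% of 5.53 to 25.2, and it was 19.9-fold lower without exosome 1, 6.91-fold without cell 2 and 7.09-fold without exosome 5 and cell 2 together. With no filter on low counts RNVU1-20 was called (log2 -3.15, edgeR adjusted p = 0.0366), but not without exosome 3 (-2.80, 0.101), cell 2 (-2.86, 0.118) or cell 3 (-3.46, 0.0619). Libraries carried no molecular identifiers, so such intervals cover counting error only.

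Summed over the U1 entries counted once, U1 had 172, 207, 205, 189 and 215 CPM in exosomes 1 to 5, against 167, 169.8 and 411 CPM in cells 1 to 3. Identical U1 entries had near-equal counts, so a read that matches several related entries may be in this sum more than once. The sum is therefore not a level of U1. The exosomes sat within the range of the cells, and cell 3 stood above all others. The mean was 198 ± 17.2 CPM in exosomes (SD, n = 5) and 249 ± 140.1 CPM in cells (SD, n = 3), a log2 ratio of means of -0.33 that lies within the spread of the cells.

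Ratios within a library do not depend on scaling, and here they describe the same reads as the fit. Per 100 reads of RNU1-1, RNVU1-17 had 18.2, 12.3, 9.99, 48.6 and 37.3 reads in exosomes 1 to 5, against 3.90, 3.14 and 4.44 in cells 1 to 3. The cells lay within a narrow range below every exosome. The mean log2 ratio differed by 2.47 (exact permutation test, two-sided, p = 0.0357, the smallest that 56 splits can give; adjusted p = 0.214 over 6 ratios), and it was higher in 5 of 5 exosomes than in any cell. With 56 splits, an adjusted p under 0.05 over 6 ratios would need at least 5 of them at this smallest p, so the adjusted value could not pass for a single ratio. Leaving out each library in turn gave 2.17 to 2.74.

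RNVU1-1 had 27.1, 35.1, 23.8, 18.4 and 25.5 reads per 100 of RNU1-1 in exosomes 1 to 5, against 77.5, 33.0 and 64.5 in cells 1 to 3, a difference of -1.11 on the log2 scale (exact permutation p = 0.0714, adjusted 0.214). Only exosome 2 overlapped the cells, being above cell 2. RNVU1-14 averaged 0.592 ± 0.569 reads per 100 in exosomes (SD, n = 5) and 4.79 ± 5.84 in cells (SD, n = 3), with a difference of -2.64 (exact permutation p = 0.107, adjusted 0.214). For RNVU1-7 the difference was 0.17 (53.0 ± 14.3 in exosomes, 48.7 ± 21.6 in cells, exact permutation p = 0.679). For RNVU1-19 it was -0.44 (11.9 ± 3.83 in exosomes, 15.8 ± 3.21 in cells, exact permutation p = 0.25, adjusted 0.375).

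**Figure D4:**
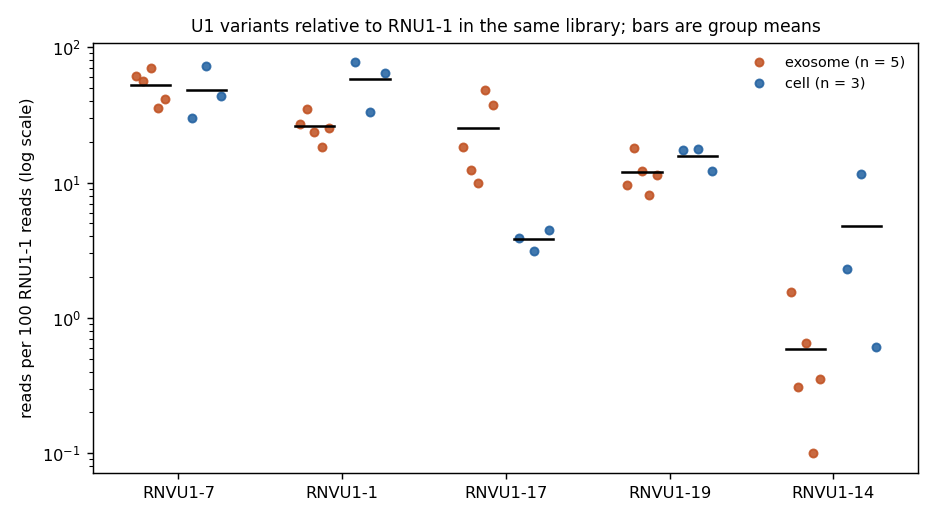
Reads of 5 U1 variants per 100 RNU1-1 reads of the same library (vertical log axis) for 5 exosome and 3 cell libraries, with bars at group means. RNVU1-17 lies at 9.99 to 48.6 in exosomes and 3.14 to 4.44 in cells; the groups overlap for the other 4 variants.

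The U4 pair is printed because the genes are told apart by 4 bases. RNU4-1 and RNU4-2, the U4 snRNA genes, are neighbours on chromosome 12 (GRCh37, 120730900 to 120731040 and 120729566 to 120729706, both minus strand), and the substitutions from RNU4-1 to RNU4-2 are C37T, G88A, C99A and C113T. The capitals mark the bases of RNU4-2 that differ.
RNU4-1: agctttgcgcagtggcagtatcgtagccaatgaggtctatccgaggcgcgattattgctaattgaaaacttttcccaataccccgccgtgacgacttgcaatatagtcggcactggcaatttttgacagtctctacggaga
RNU4-2: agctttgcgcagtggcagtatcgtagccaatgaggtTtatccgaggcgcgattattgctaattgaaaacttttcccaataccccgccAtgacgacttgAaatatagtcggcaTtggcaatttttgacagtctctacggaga

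Neither U4 gene passed the test. RNU4-1 had 11.8, 10.7, 8.81, 5.54 and 9.44 CPM in exosomes 1 to 5, against 7.74, 18.1 and 11.6 CPM in cells 1 to 3, and the groups overlapped. The mean was 9.25 ± 2.37 CPM in exosomes (SD, n = 5) and 12.5 ± 5.22 CPM in cells (SD, n = 3), with a log2 fold change of -0.43 (SE 0.50, edgeR adjusted p = 0.517). RNU4-2 had 5.06, 7.30, 5.02, 3.78 and 3.15 CPM in exosomes, against 4.09, 4.82 and 5.26 CPM in cells. The cells lay inside the range of the exosomes, and the log2 fold change was 0.04 (SE 0.51, edgeR adjusted p = 0.956). RNU4-2 made 54.0 ± 15.6 reads per 100 of RNU4-1 in exosomes (SD, n = 5) and 41.6 ± 13.5 in cells (SD, n = 3), a log2 difference of 0.38 (exact permutation p = 0.321, adjusted 0.385).

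The 5 U6 entries held few reads in exosome libraries and more in cell libraries. Together they had 6, 1, 10, 6 and 0 reads in exosomes 1 to 5, against 42, 107 and 93 reads in cells 1 to 3, so that every exosome was below every cell. In CPM this was 0.122 ± 0.0998 CPM in exosomes (SD, n = 5) and 2.17 ± 1.25 CPM in cells (SD, n = 3). Per scaled library size the summed U6 reads were 14.4-fold lower in exosomes, with an exact binomial interval of 9.35 to 23.1, and 10.7-fold lower without cell 2 (9.79-fold without exosome 5 and cell 2 together). None of the 5 passed the filter, so U6 has no test in the main comparison. In exosome 5, 0 reads allows up to 3, and that floor runs from 0.0523 to 0.128 unscaled CPM over the libraries.

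The reads fell on different U6 genes in different cell libraries. RNU6-7 (chromosome 14, 32671251 to 32671357, plus strand) had 1, 0, 1, 1 and 0 reads in exosomes 1 to 5, against 2, 96 and 11 in cells 1 to 3. RNU6-9 (chromosome 19, 893484 to 893590, plus strand) had 4, 1, 2, 1 and 0 reads in exosomes, against 28, 3 and 66 in cells. Cell 2 held most of the RNU6-7 reads, and cells 1 and 3 held most of the RNU6-9 reads. RNU6-8, RNU6-1 and RNU6-2 had at most 5 reads in an exosome library and at most 12 in a cell library. All 5 genes share their first 106 of 107 bases, with T107G in RNU6-7 and RNU6-8 relative to RNU6-1, and GENCODE 29 names 1276 transcripts as U6, so a read within the shared bases matches many copies and a low count on these 5 entries does not give the level of U6. RNU6-7 and RNU6-8 have the same 107 bases but 96 and 8 reads in cell 2, and how reads were assigned to each is not given in the sources used here.

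With no filter on low counts, the RNU6-9 and RNU6-7 entries, as counted, were called lower in exosomes, and each call rested on 1 cell library. RNU6-9 had a log2 fold change of -3.65 (edgeR adjusted p = 0.0119), and -2.88 (0.185) without cell 3. RNU6-7, with adjusted p = 0.000245, was not called without cell 2 (0.241) or without exosome 5 and cell 2 together (0.258). It had 3 reads over all exosomes against 109 over all cells, 49.6-fold lower per scaled library size, with an exact binomial interval of 16.5 to 244.0. Without cell 2, which held 96 of those reads, RNU6-7 was 7.93-fold lower, with an interval of 2.18 to 43.4, and without cell 3 it was 79.4-fold lower.

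**Figure D5:**
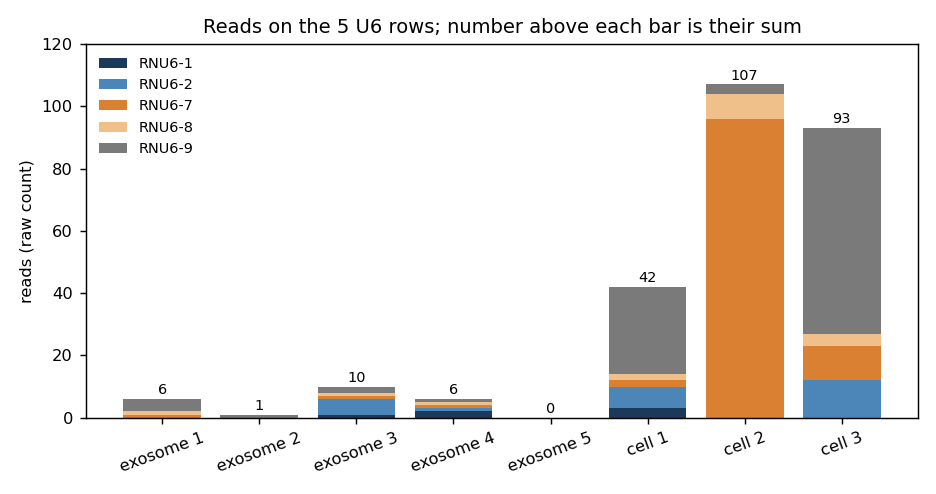
Raw reads on the 5 U6 entries (vertical axis), stacked by gene, for each exosome and cell library, with the sum above each bar. Exosome sums run from 0 to 10 and cell sums from 42 to 107, and RNU6-7 fills most of cell 2 while RNU6-9 fills most of cells 1 and 3.

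Of the 9 U5 and minor spliceosome snRNAs, all tested, 1 was higher in exosomes, 1 was lower and 7 did not pass, beside 43.0% of all tested features called. Their median log2 fold change was -0.09. RNU11, which pairs with the 5′ splice site of minor introns, averaged 409 ± 255 CPM in exosomes (SD, n = 5) and 51.4 ± 21.7 CPM in cells (SD, n = 3), with a log2 fold change of 2.99 (edgeR adjusted p = 0.00239). RNU5F-1, a U5 variant, averaged 3.15 ± 1.30 CPM in exosomes (SD, n = 5) and 11.8 ± 5.47 CPM in cells (SD, n = 3), with a log2 fold change of -1.90 (edgeR adjusted p = 0.00907). Per kilobase, RNU5E-1 was at 6214 CPM in exosomes and 6603 in cells, many times the level of RNU1-1 given above. The level of a U5 gene and of RNU1-1 are both library shares and say nothing of particles per vesicle or per cell.

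Small Cajal body RNAs (scaRNAs) guide the modification of snRNAs made by RNA polymerase II. Of 20 scaRNA entries, 18 were tested, of which 7 were lower in exosomes, 1 (SCARNA7, log2 1.83) was higher and 10 did not pass, beside 22.3% of all tested features lower and 20.7% higher. Their median was -1.33 on the log2 scale, and -0.09 over all tested features. Of the 6 C/D box snoRNAs listed as guides of U6, 2 were lower, SNORD94 (log2 -3.44, edgeR adjusted p = 0.00109) and SNORD8 (-1.72, adjusted p = 0.0304), and 4 were not called. Among the 7 RNA polymerase III transcripts with an entry in the list set beside U6, 6 were higher in exosomes and 1, RN7SK, the nuclear 7SK RNA, was lower (log2 -5.39), beside the same shares of all features. RN7SK ran from 997 to 17893 CPM over the cells and from 167 to 272 CPM over the exosomes. RN7SL1 and RN7SL2, 2 of the 6, are close copies (log2 3.22 and 3.05). RN7SK, RN7SL1 and RN7SL2 span 331, 300 and 297 bases, while the protocols took RNA under 200 bases. Their counts may therefore not be levels of the whole transcripts. RNU7-1, the U7 snRNA of histone pre-mRNA processing, was not called (log2 0.57, edgeR adjusted p = 0.522).

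Marker microRNAs were listed to check the sample. Of the 6 microRNAs listed as leukocyte markers, 3 had an entry (MIR150, MIR21 and MIR181A1), while MIR142, MIR155 and MIR29A had none. They summed to 6354 to 18254 CPM in exosomes and 12969 to 27143 CPM in cells, and none was called, beside 43.0% of all tested features. Nearly all of that sum was MIR21, with means of 11171 CPM in exosomes and 20176 in cells. MIR181A1 averaged 357 and 287 CPM, and MIR150 24.9 and 8.33 CPM, so the sum describes MIR21 rather than the 3 together. The sum does not settle the cell type. Of the 14 markers of other cell types, 10 had an entry and 9 were tested. Of the 9, 4 were higher in exosomes (liver-enriched MIR122, MIR143, MIR126 and MIR203), beside 20.7% of all tested features. The other 5, with log2 fold changes from -1.28 (MIR9-1) to 1.90 (MIR199A1), were not called. Those 10 summed to 119 to 275 CPM in exosomes and 68.5 to 93.6 CPM in cells, and their part in the snRNA results was not tested.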

How the data were processed

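Small RNA libraries of MEC-1 exosomes (n = 5) and MEC-1 cells (n = 3) were compared. The authors deposited unnormalized read counts, with featureCounts columns per the file headers. GRCh37, STAR, featureCounts, cutadapt 1.1 and DESeq2 1.8.2 appear in the submitters' processing notes. Settings for strand and multi-mapping are not stated there, and the labels name no batch. RNA under 200 bases was taken, per the labels' protocols.

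Features were tested in R 4.3.3 by the quasi-likelihood method of edgeR 4.0.16 (filterByExpr with a minimum of 10 counts, TMM scaling, Benjamini-Hochberg adjustment over all 1178 tested features, called at 0.05). The standard error is the size of the log2 fold change divided by the square root of F. The fit was tested on data simulated around a shared profile, without the spread of TMM factors seen here. That test does not speak to the choice of scaling. Near-identical entries (a mean of at least 20 counts, within 2% or 5 reads in every library, in 35 groups of 99 features; or listed by RefSeq under 1 gene and within 5% or 5 reads) were counted once. Ratios within a library were compared by exact permutation. Entries averaging 100 counts or more in either group are given by library, as is each entry a result turns on. RefSeq matched 30 of 31 names and GENCODE 29 matched 22 sequences. Alternatives were DESeq2 1.42.0, limma-voom (limma 3.58.1), other scalings and filters, near-identical entries once, no rRNA, a replicate block and single libraries left out. The members and lists were chosen with earlier results of these data known.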

Additional observations from a re-analysis of the deposited data

Results flagged for a closer look

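RNVU1-16 in exosome 1 stood apart from the other exosomes, at 0.307 CPM, with a gap to its nearest neighbour of 0.759 of the group's range (Dixon's critical value 0.71 for 5 libraries). It rests on 10 reads, and it was still below every cell. Of 18 groups of values examined, chance flags about 1 in 20.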

How the results depend on the processing

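Over all features, 244 were called higher and 263 lower, and 162 and 171 with the replicate block. With the replicate block (exosomes 1 to 3 and the cells, paired by number), 0 of the U1, U2, U4 and U6 entries were higher and 3 lower; without the pairing term the same 6 libraries gave 0 higher, as did all libraries without exosome 5 and cell 2, a choice made after seeing the data. With the block RNVU1-17 was 1.77 (edgeR adjusted p = 0.0746) and RNVU1-14 -1.725 (0.193), both uncalled. No label says which libraries were paired, and same-numbered libraries correlated at 0.107, -0.0896 and 0.186, so the numbers are not taken as pairs. In place of 6 members called lower there were 3 with total counts and 1 with at least 50 counts in 3 libraries. Leaving out each library in turn gave 179 to 272 features higher, 189 to 261 lower, 0 to 1 members higher and 3 to 6 lower. Over all features the log2 fold change had a median of -0.09, and of 0.19 with total counts, 0.25 with upper-quartile scaling, 0.36 with no filter and 0.29 without rRNA entries; relative to that median RNVU1-17 was at 2.51, and 2.42 to 2.53 under the other scalings. The U1 sum had a log2 ratio of 0.46 and the U4 sum of 0.62 without rRNA, and U1 ran from -0.56 to 0.23 with a library left out. Uncalled entries changed sign. RNVU1-7 was 0.0335 with DESeq2, 0.12 with voom, 0.0335 with DESeq2 size factors, 0.38 with total counts, 0.25 with upper-quartile scaling, 0.20 with no filter, 0.36 with the 50-count filter, 0.0253 with entries counted once, 0.26 without rRNA, 0.41 with the block, 0.24 in its 6 libraries and 0.0139 without exosome 5 and cell 2, and ran from -0.51 to 0.85 with a library left out. RNU1-1 was 0.0355 with total counts, 0.0667 with upper-quartile scaling, 0.19 with the 50-count filter and 0.0641 without rRNA, and ran from -0.57 to 0.76 with a library left out. So did RNU4-1 from -0.76 to 0.078, RNU4-2 from -0.13 to 0.48, RNVU1-19 from -0.73 to 0.20 and the RNVU1-7 ratio from -0.13 to 0.50. The cause was not tested. RNVU1-15 and RNVU1-16 stayed called in all settings that tested them, but both entered the test through the cells, where they were high. The 50-count filter left both untested. Depth is 1 limit on the U6 counts, where the 0 in exosome 5 allows 0.11 unscaled CPM and a 0 in the shallowest library, exosome 4, would allow 0.128. The bases that U6 copies share, given above, are another limit.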
